A study of Mus musculus with 12 samples.

Results

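Caveolae are flask-shaped pits of the plasma membrane that are abundant in endothelium, adipocytes and muscle, where they buffer membrane tension and organise signalling and lipid uptake. Caveolins insert a hairpin into the inner leaflet and oligomerise, and a coat of cavins assembles on them from the cytosol. EHD2, an ATPase of the dynamin superfamily, forms a ring at the neck and holds the pit at the surface. The transcripts described here are those of the caveolins Cav1 (ENSMUSG00000007655) and Cav2 (ENSMUSG00000000058), the cavins Cavin1 (ENSMUSG00000004044), Cavin2 (ENSMUSG00000045954) and Cavin3 (ENSMUSG00000037060), and Ehd2 (ENSMUSG00000074364). These 6 genes were taken by symbol from a matrix of 55359 gene identifiers. Had a symbol stood in several rows, the row would have been chosen by its mean level over the 12 libraries, but each stood in 1 row. All 6 were among the 12836 genes that reached 1 TPM, a length-scaled share of the transcripts in a library, in 3 or more libraries, and these were tested.

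The libraries come from ISOS-1, a mouse angiosarcoma line that the labels call endothelial and of wild-type genotype, grown in serum-containing medium and read by sequencing of transcript 3′ ends. Cells received SAHA (vorinostat, 1 µM) over 24 h, VPA (valproic acid, 2 mM) over 36 h, JQ1 (1 µM) over 36 h, or DMSO, with no dose or duration on the label. There were 3 libraries in each of the 4 groups. SAHA and VPA inhibit histone deacetylases, and JQ1 displaces BET bromodomain proteins from acetylated chromatin. Exposure time cannot be told apart from the drug in any comparison with DMSO or with SAHA. Nothing in the labels says whether the replicates of a group were separate cultures. A p-value here therefore reflects spread among libraries that may be technical, and all results are from a single cell line.

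Most defining endothelial markers were absent, which goes against the label. Of 12 blood endothelial genes, 2 (Cd34 and Pecam1) reached 1 TPM in any library, and Cdh5, Cldn5, Erg and Vwf were listed at 0 in all 12. Of 10 fibroblast genes 9 reached it, and Col1a2 was among them. Among lists for other cells that can hold many caveolae, 3 of 8 adipocyte genes and 2 of 10 striated muscle genes reached 1 TPM, with Adipoq and Cav3, the caveolin of muscle, listed at 0 in every library. The libraries listed 13735 to 14799 genes above 0, and the mitochondrially encoded genes held 14.3 to 15.3% of the TPM with JQ1, 11.02 to 11.7% with SAHA, 11.9 to 12.4% with VPA and 11.1 to 11.2% with DMSO. Rn18s, a ribosomal RNA gene, held 7.95 to 11.1%, with the highest share in SAHA replicate 3. TPM keeps no sequencing depth, so the counting error of each value is unknown. Over all tested genes, the calls split into 396 higher and 270 lower with SAHA, 379 and 169 with VPA (270 and 293 after median-of-ratios scaling) and 1657 and 2690 with JQ1 (2068 and 2196 after quantile normalization), each against DMSO.

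Averaged over the 12 libraries, Cavin1, whose product is the core cavin needed to form caveolae, was the most abundant member at 220.3 TPM, above 95.7% of the tested genes. Cavin2 had 54.0 TPM (above 85.3%), Cavin3 31.4 (78.1%), Cav1 23.8 (73.2%), Cav2 7.92 (50.3%) and Ehd2 4.35 (36.6%). These TPM levels are scaled per length of transcript, although tags from 3′ ends do not grow with length, so the order of levels between genes depends on the length used. The comparisons below therefore rest on each gene between groups, or on the shift of a ratio between groups, in which the length cancels.

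Both caveolins and Cavin2 fell with JQ1, while Cavin1, Cavin3 and Ehd2 did not pass the test. Cav1, which encodes the structural caveolin of non-muscle cells, had 7.72, 5.24 and 7.94 TPM in the JQ1 libraries, against 26.41, 29.22 and 25.48 in the DMSO libraries. The groups lay far apart, and the highest JQ1 library was well below the lowest DMSO library. The mean was 6.97 ± 1.499 TPM with JQ1 and 27.0 ± 1.95 with DMSO (SD, n = 3 each), which is 3.88-fold lower (difference in log2(TPM + 1) −1.83, SE 0.142, limma adjusted p = 2.6e-06). Cav2 encodes a partner that needs caveolin-1 to leave the Golgi. It had 1.47, 1.94 and 2.35 TPM with JQ1, against 11.24, 8.16 and 10.04 with DMSO. The mean fell to 1.92 ± 0.44 TPM in JQ1 cells, against 9.81 ± 1.55 in DMSO cells, 5.11-fold lower (−1.89, SE 0.214, limma adjusted p = 4.66e-05). At such low levels the log2 value depends on the pseudocount: with 5 TPM in place of 1 TPM the difference for Cav2 was −1.09 and its call held. In these bulk samples, fewer cells that express a gene and less RNA per cell cannot be told apart.

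Cavin2, a cavin that helps bend the membrane and is prominent in endothelium, fell as far. It had 13.29, 10.14 and 11.72 TPM with JQ1, against 48.34, 40.98 and 45.32 with DMSO. The mean was 11.7 ± 1.58 TPM in JQ1 cells and 44.9 ± 3.70 in DMSO cells, 3.83-fold lower (−1.86, SE 0.11, limma adjusted p = 3.53e-07). Of the 6 members, 3 were thus called lower and none higher with JQ1, where 21% of all tested genes were called lower and 33.9% in either direction. The JQ1 and DMSO libraries did not overlap for these same 3 members, as for 45.7% of tested genes. The median difference of the members was −0.96, against −0.07 over all tested genes, but no member lay near that median. The 3 called members lay between −1.89 and −1.83, and the other 3 between −0.10 and 0.07. The 3 calls held under every alternative in the closing section, including TPM recomputed without mitochondrial genes and Rn18s (−1.80 for Cav1, −1.92 for Cav2 and −1.81 for Cavin2).

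Cavin1 did not pass the test with JQ1. It had 255.68, 249.57 and 240.38 TPM in the JQ1 libraries, against 225.64, 261.88 and 224.35 in the DMSO libraries. The groups overlapped, and the difference was 0.07 (95% interval −0.08 to 0.22, limma adjusted p = 0.469), an interval that leaves out a fall of the size seen for Cav1. After median-of-ratios scaling the difference was 0.19 (adjusted p = 0.0495) and after quantile normalization 0.33 (adjusted p = 0.00311), so that Cavin1 was called higher under both. Cavin3, whose product binds protein kinase C delta and takes part in caveola trafficking, had 33.50, 29.71 and 30.64 TPM with JQ1, against 31.83, 32.78 and 29.69 with DMSO (difference −0.01, 95% interval −0.45 to 0.43, limma adjusted p = 0.988). The sign of this difference changed with each rescaling tried. Ehd2 had 4.30, 3.94 and 2.60 TPM with JQ1, against 4.45, 3.58 and 3.63 with DMSO (−0.10, 95% interval −0.53 to 0.33, limma adjusted p = 0.745). For both genes the libraries of the 2 groups were interleaved.

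**Figure D1:**
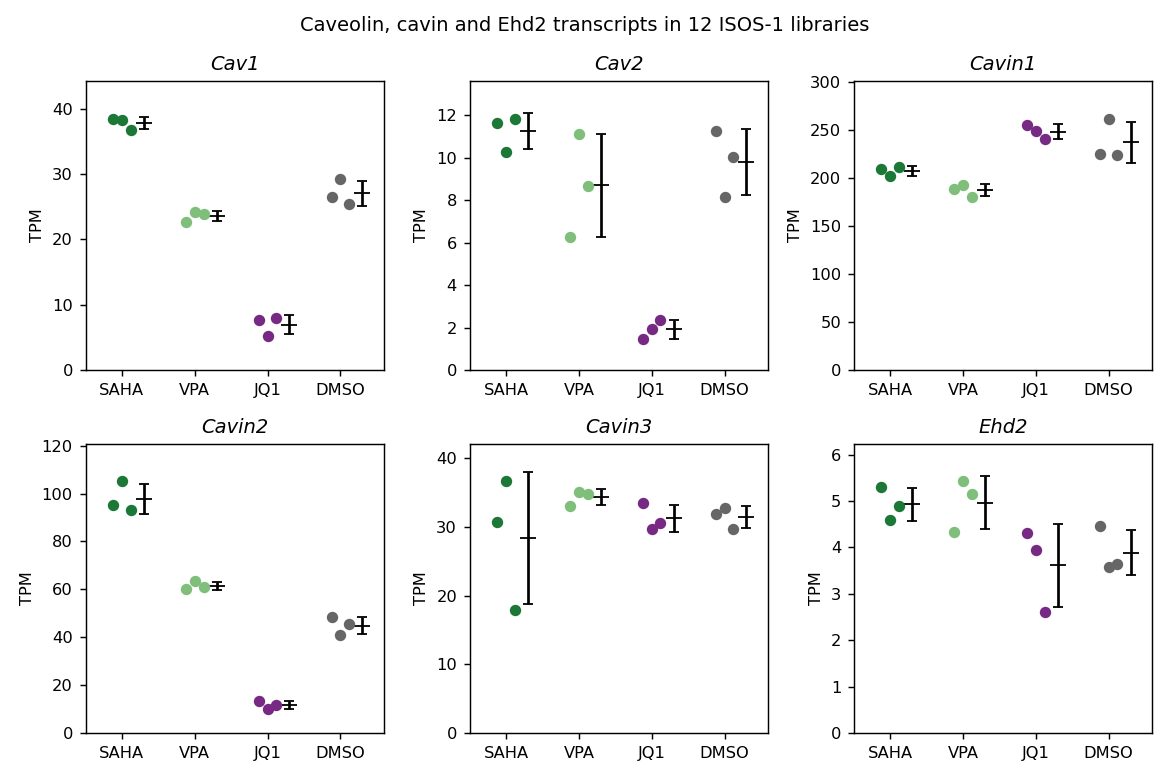
TPM of the 6 genes in each of the 12 libraries (points), by group, with the mean and SD of 3 libraries beside them (bars); the vertical axes start at 0 and differ between panels. Cav1, Cav2 and Cavin2 are lowest in the 3 JQ1 libraries, Cavin2 is highest in the 3 SAHA libraries, and SAHA replicate 3 is the low point of Cavin3.

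With SAHA, Cavin2 rose. Cavin2 had 95.18, 105.08 and 92.95 TPM in the SAHA libraries, against 48.34, 40.98 and 45.32 in the DMSO libraries. The lowest SAHA library lay well above the highest DMSO library, and the mean of 97.7 ± 6.46 TPM in SAHA cells was 2.18-fold that of DMSO cells at 44.9 ± 3.70 (difference 1.11, SE 0.11, limma adjusted p = 0.000328). It was the single member called, where 3.09% of tested genes were called higher, 2.1% lower and 5.19% in either direction. Cav1 had 38.44, 38.29 and 36.72 TPM with SAHA, against 26.41, 29.22 and 25.48 with DMSO. All 3 SAHA libraries were above all 3 DMSO libraries (24.3% of tested genes did not overlap, in either direction), but the difference of 0.47 (95% interval 0.16 to 0.78) missed the threshold (limma adjusted p = 0.087). It passed with a pseudocount of 5 TPM (adjusted p = 0.0449) and without JQ1 replicate 2 (adjusted p = 0.0269), whose removal changes the shared estimate of spread. Cav2 did not follow clearly, with 11.62, 10.28 and 11.83 TPM with SAHA against 11.24, 8.16 and 10.04 with DMSO (0.19, 95% interval −0.28 to 0.66, limma adjusted p = 0.701).

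Cavin1 stood at 209.11, 202.20 and 211.69 TPM with SAHA, below each of the DMSO libraries, with a difference of −0.19 (95% interval −0.34 to −0.04, limma adjusted p = 0.148). Cavin3 had 30.67, 36.64 and 17.92 TPM with SAHA, against 31.83, 32.78 and 29.69 with DMSO. The low value belongs to replicate 3, the library with the highest Rn18s share, and what part that share has in it was not tested. The difference was −0.20 with all libraries (limma adjusted p = 0.657) and 0.09 without SAHA replicate 3 (adjusted p = 0.755). Ehd2 had 5.29, 4.58 and 4.90 TPM with SAHA, against 4.45, 3.58 and 3.63 with DMSO (0.28, 95% interval −0.15 to 0.71, limma adjusted p = 0.485).

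With VPA, Cavin2 rose and Cavin1 fell. Cavin2 had 60.09, 63.45 and 60.86 TPM with VPA, against 48.34, 40.98 and 45.32 with DMSO, a mean of 61.5 ± 1.76 TPM in VPA cells against 44.9 ± 3.70 in DMSO cells and 1.37-fold higher (difference 0.45, SE 0.11, limma adjusted p = 0.0463). This call sat at the threshold: the direction held under all 21 alternatives, but the call was lost under 16 of them, with adjusted p up to 0.144 without DMSO replicate 2; without any 1 of the SAHA, VPA or DMSO libraries, or JQ1 replicate 3, it was lost. Cavin1 had 189.03, 193.01 and 180.60 TPM with VPA, against 225.64, 261.88 and 224.35 with DMSO. It fell by 0.33 on the log2 scale (SE 0.0673, limma adjusted p = 0.0194), and its mean TPM was 0.79 of that in DMSO cells. The Cavin1 call was lost without VPA replicate 1 (adjusted p = 0.0564), VPA replicate 3 (0.071) or DMSO replicate 2 (0.0555), and in a fit of these groups alone (0.0961). Thus 1 member was called higher and 1 lower, where 2.95% and 1.32% of tested genes were.

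The other members did not pass with VPA. Cav1 had 22.68, 24.15 and 23.86 TPM with VPA, just below the 26.41, 29.22 and 25.48 of DMSO (−0.19, 95% interval −0.50 to 0.12, limma adjusted p = 0.535). Cav2 spread over 6.29, 11.12 and 8.68 TPM with VPA, and the difference from DMSO of −0.18 came to 0.01 without VPA replicate 1. Cavin3 had 33.03, 35.15 and 34.86 TPM (0.12, limma adjusted p = 0.803) and Ehd2 4.33, 5.42 and 5.14 TPM (0.29, limma adjusted p = 0.488).

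**Figure D2:**
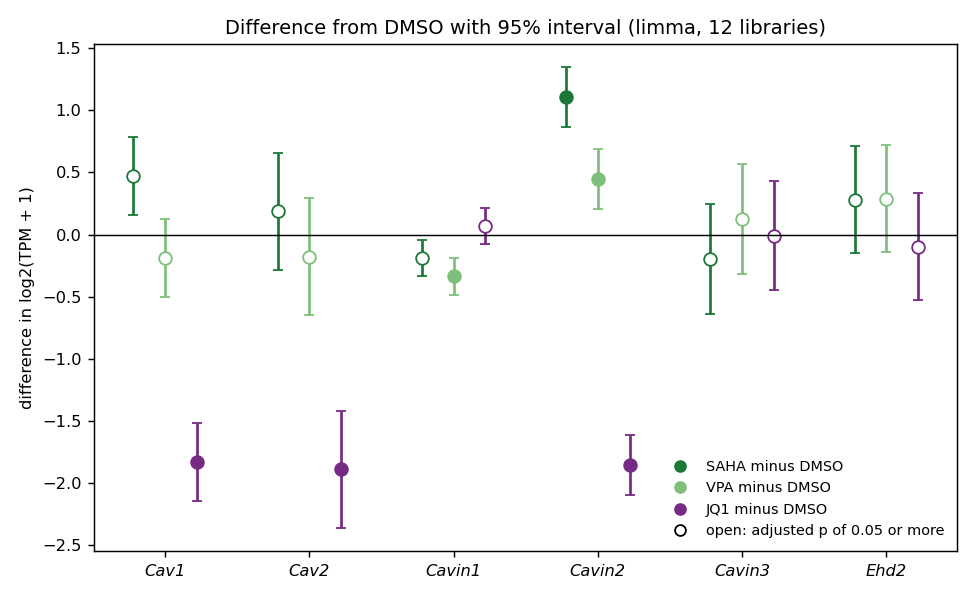
Difference in log2(TPM + 1) from DMSO for each gene and drug, with 95% intervals from the limma fit of 12 libraries; filled points have an adjusted p under 0.05. With JQ1 the points for Cav1, Cav2 and Cavin2 lie between −1.89 and −1.83, and those for Cavin1, Cavin3 and Ehd2 between −0.10 and 0.07.

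The drugs were then set against each other, although SAHA and VPA differed in both dose and duration. VPA and JQ1 shared a duration of 36 h. Cavin2 was 1.59-fold higher with SAHA than with VPA (97.7 ± 6.46 against 61.5 ± 1.76 TPM, difference 0.66, SE 0.11, limma adjusted p = 0.0284), the single member among the 0.452% of tested genes called between these drugs (34 higher and 24 lower with SAHA, and 73 and 21 after median-of-ratios scaling). That call was lost without any 1 of the SAHA or VPA libraries (adjusted p up to 0.126, without SAHA replicate 2), in a fit of the 2 groups alone (0.056) and with the replicate number as a block (0.0883). Cav1 was 1.60-fold higher with SAHA than with VPA (0.66, 95% interval 0.35 to 0.97), with no overlap of the libraries, as for 16.6% of tested genes. Its limma adjusted p was 0.0793 (0.0416 with a pseudocount of 5 TPM and 0.0247 without JQ1 replicate 2). For Cav2, Cavin1, Cavin3 and Ehd2 the differences between SAHA and VPA were 0.36, 0.15, −0.32 and −0.01, none past the threshold.

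At the matched 36 h, VPA and JQ1 cells differed in 4 members. Cav1 was 3.38-fold, Cav2 4.53-fold and Cavin2 5.25-fold higher with VPA than with JQ1 (differences 1.64, 1.71 and 2.30, limma adjusted p = 6.2e-06, 0.000101 and 6.78e-08). Cavin1 was lower with VPA, at 187.5 ± 6.34 against 248.5 ± 7.70 TPM (−0.40, SE 0.0673, limma adjusted p = 0.000768). Of all tested genes 33.2% were called in either direction, and 22.9% were called higher and 10.3% lower with VPA, 2945 and 1319 genes (2253 and 1927 after median-of-ratios scaling). Scaling by median of ratios moved the median of all tested genes by −0.15, and quantile normalization by −0.17. Under both, the 4 calls held. The libraries of 5 members did not overlap between VPA and JQ1, against 45.3% of tested genes. SAHA and JQ1 cells differed in the same 4 members, with Cavin2 8.34-fold higher with SAHA (2.96, SE 0.11, limma adjusted p = 8.13e-09), Cav1 5.43-fold and Cav2 5.86-fold higher, and Cavin1 lower (207.7 ± 4.91 against 248.5 ± 7.70 TPM, −0.26, limma adjusted p = 0.012). There 33.3% of tested genes were called in either direction, 44.6% did not overlap (5 of the members), and 21.3% were called higher and 11.9% lower, 2737 and 1533 genes (2281 and 2010 after median-of-ratios scaling), and quantile normalization moved the median of all tested genes by −0.11.

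By mean level, Cav1 and Cav2 shared the order SAHA, DMSO, VPA, JQ1, and for Cavin2 it was SAHA, VPA, DMSO, JQ1. Neighbouring groups did not overlap for Cav1 or Cavin2. The same held for 24.3% of tested genes between SAHA and DMSO, 23.5% between VPA and DMSO and 16.6% between SAHA and VPA. It held for 45.3% between VPA and JQ1 and 45.7% between JQ1 and DMSO. For Cav1 the steps from SAHA to DMSO and from DMSO to VPA did not pass the test (limma adjusted p = 0.087 and 0.535). For Cav2 the libraries of SAHA, DMSO and VPA overlapped from neighbour to neighbour and JQ1 stood below them. For Cavin1 the order was JQ1, DMSO, SAHA, VPA, in which JQ1 and DMSO overlapped. For Cavin3 DMSO, JQ1 and SAHA overlapped from neighbour to neighbour, with VPA just above DMSO, and for Ehd2 VPA overlapped SAHA and DMSO overlapped JQ1.

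The ratio of each gene to Cav1 within a library shows which transcripts moved with Cav1, free of library scaling apart from the pseudocount. The log2 ratio of Cavin1 to Cav1 was 4.99 ± 0.301 in JQ1 libraries and 3.09 ± 0.0367 in DMSO libraries, a shift of 1.90 (exact permutation test, two-sided p = 0.1, the smallest that 3 against 3 allows). The same ratio was 2.43 ± 0.0634 with SAHA, below DMSO by 0.66 on the log2 scale. Cavin3 and Ehd2 also shifted against Cav1 with JQ1, by 1.82 and 1.73 (exact p = 0.1 each). The ratio of Cav2 to Cav1 was −1.44 ± 0.368 with JQ1 and −1.38 ± 0.298 with DMSO, a shift within the spread of the libraries. That shift depends on the pseudocount and was 0.33 with 5 TPM, while mean TPM fell 5.11-fold for Cav2 and 3.88-fold for Cav1. The ratio of Cavin2 to Cav1 was 0.69 ± 0.165 with JQ1 and 0.71 ± 0.205 with DMSO, again within the spread. It was 1.35 ± 0.0775 with SAHA and 1.35 ± 0.0277 with VPA, above DMSO by 0.64 in both cases (exact p = 0.1). Of the 30 ratio comparisons, 21 reached this exact permutation p of 0.1, for an adjusted p of 0.143, so no ratio test could pass the threshold at this size.

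**Figure D3:**
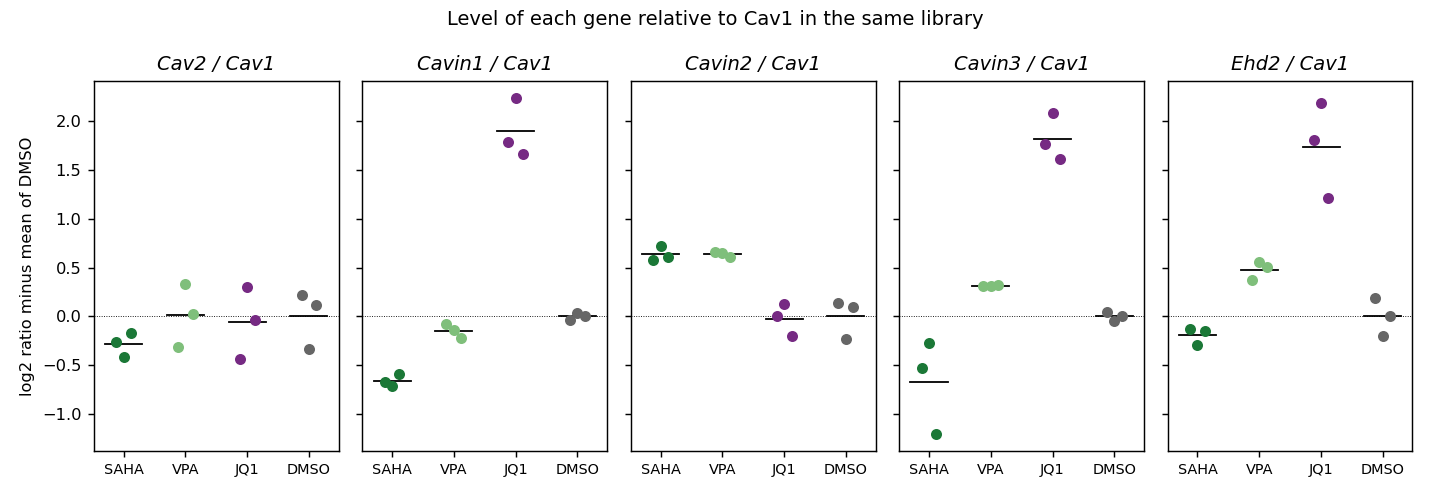
Log2 ratio of each gene to Cav1 within a library, from log2(TPM + 1), less the mean of the DMSO libraries; points are libraries, lines are means of 3, and the panels share their vertical axis. With JQ1 the ratios of Cavin1, Cavin3 and Ehd2 to Cav1 lie 1.73 to 1.90 above DMSO, and those of Cav2 and Cavin2 lie at the DMSO level.

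Cav1 and Cav2 are neighbours on mouse chromosome 6, with no annotated gene between them in RefSeq on GRCm38.p6, while Cavin2 lies on chromosome 1 and Cavin1 on chromosome 11. The promoters of the 3 genes that fell together with JQ1 are printed with that of Cavin1, which did not, to show what letters they share. They are RefSeq sequences from 250 bases before to 50 after an annotated start, on build GRCm38.p6, which is not the mm39 named in the submitters' processing notes, and the table held 5 of the 6 members, without Cavin3. Cav1 is at chr6:17306085-17306384 (plus strand, the first of its annotated starts), Cav2 at chr6:17280935-17281234 (plus), Cavin2 at chr1:51288876-51289175 (plus) and Cavin1 at chr11:100970568-100970867 (minus). Capitals mark matches to any of the 5 motifs searched on both strands.
Cav1: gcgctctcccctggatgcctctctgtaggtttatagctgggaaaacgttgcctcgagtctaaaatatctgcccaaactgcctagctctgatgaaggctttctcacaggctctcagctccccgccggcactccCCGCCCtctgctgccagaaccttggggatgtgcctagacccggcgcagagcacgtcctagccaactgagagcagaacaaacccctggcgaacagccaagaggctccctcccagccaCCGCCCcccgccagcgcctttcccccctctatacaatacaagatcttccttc
Cav2: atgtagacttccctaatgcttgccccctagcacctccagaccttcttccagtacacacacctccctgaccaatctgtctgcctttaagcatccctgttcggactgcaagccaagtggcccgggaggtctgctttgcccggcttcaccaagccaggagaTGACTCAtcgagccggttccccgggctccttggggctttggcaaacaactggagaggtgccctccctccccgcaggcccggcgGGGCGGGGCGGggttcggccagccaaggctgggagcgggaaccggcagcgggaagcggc
Cavin2: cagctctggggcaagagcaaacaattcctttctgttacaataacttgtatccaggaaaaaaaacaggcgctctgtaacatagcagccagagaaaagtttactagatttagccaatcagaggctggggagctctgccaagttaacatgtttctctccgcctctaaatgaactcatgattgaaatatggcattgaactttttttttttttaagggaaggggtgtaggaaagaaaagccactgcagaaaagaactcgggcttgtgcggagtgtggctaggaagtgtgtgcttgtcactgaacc
Cavin1: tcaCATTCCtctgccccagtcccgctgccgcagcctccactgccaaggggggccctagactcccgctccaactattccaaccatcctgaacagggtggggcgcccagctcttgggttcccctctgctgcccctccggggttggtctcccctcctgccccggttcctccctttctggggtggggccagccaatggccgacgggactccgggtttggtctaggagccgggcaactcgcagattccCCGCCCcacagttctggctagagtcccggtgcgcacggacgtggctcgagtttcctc

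The motifs were GGAATG (the core of TEAD sites), GGGCGG (GC box), CACGTG (E-box), TGANTCA (AP-1 site) and the CArG box of SRF. Positions are those of the first printed base of a match, counted from the start site. The printed Cav1 promoter holds GC boxes on the opposite strand at −118 and −2, and that of its other start in the table (chr6:17307390-17307689) holds no match to any of the 5. Cav2 holds 2 GC boxes that share a base, at −9 and −4, and an AP-1 match at −92 that reads on both strands. Cavin1 holds a TEAD core on the opposite strand at −247 and a GC box, also on the opposite strand, at −7, and Cavin2 holds no match to any of the 5. Among all 32851 promoters of the table, 35.7% hold a GC box, 7.81% an AP-1 match, 14.7% a TEAD core, 7.15% an E-box and 1.63% a CArG box. The promoters of Cav1, Cav2 and Cavin1 were rich in G and C (59.3, 64.3 and 66.7%, with 13, 16 and 17 CpG), and that of Cavin2 was not (43.3%, 4 CpG), against a median of 52.7% and 7 CpG over the table. No motif searched was found in all 3 promoters whose genes fell.

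Genes whose profile over the 12 libraries lay closest to a member were found by the root-mean-square (RMS) difference of centred log2(TPM + 1) values among 7105 genes with at least 5 TPM on average. For Cav1 these included Dtwd1 (0.223) and Pa2g4 (0.224), a growth-linked RNA-binding protein gene. Cav2 was the nearest member (0.268). Dtwd1 and Pa2g4 lay closer to Cav1, but they were picked as the closest of those 7105 genes, so this says little about Cav2. Pa2g4 had 173.9 ± 28.5 TPM with JQ1 and 579.5 ± 35.8 with DMSO. For Cav2 the nearest were Gins3 (0.182), a replication factor gene, the lysophosphatidic acid receptor gene Lpar1 (0.226) and the metalloprotease inhibitor gene Timp1 (0.23). For Cavin2 they were the chemokine gene Ccl2 (0.201), the collagen gene Col3a1 (0.236) and Cda, cytidine deaminase (0.252), and Ccl2 had 127.2 ± 8.87 TPM with SAHA, 88.3 ± 13.3 with VPA, 15.9 ± 0.957 with JQ1 and 53.3 ± 7.01 with DMSO. For Cavin1 they were Col1a2 (0.0694), Pafah1b1 (0.0762) and Rps27rt (0.0765), a ribosomal protein gene copy whose reads can be shared with its parent gene. The profile of Cavin1 itself varied little, with an RMS of 0.17 about its mean, against 0.877 for Cav1.

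Accessory proteins of caveolae gave calls in both directions with JQ1. Of 13 accessory genes 8 were tested, and 3 were higher and 1 lower with JQ1, where 12.9% of all tested genes were higher and 21% lower (median difference 0.25, against −0.07 over all tested genes). Dnm2, the dynamin that pinches off vesicles, had 27.79, 25.59 and 21.78 TPM with JQ1, against 9.46, 10.68 and 11.06 with DMSO (1.19, limma adjusted p = 0.000269). Flna, a filamin that ties caveolae to actin, rose to 23.2 ± 1.62 TPM in JQ1 cells, against 12.9 ± 2.15 in DMSO cells (0.82, limma adjusted p = 0.000874), and the EHD2 relative Ehd4 rose to 32.5 ± 1.95 in JQ1 cells, against 22.01 ± 3.42 in DMSO cells (0.55, limma adjusted p = 0.00414). Cavin4, the cavin of muscle, fell to 1.92, 1.12 and 3.78 TPM in JQ1 libraries, against 5.67, 7.67 and 8.46 in DMSO libraries (−1.40, limma adjusted p = 0.0124, and 0.0507 without JQ1 replicate 2). Pacsin3, an F-BAR protein that bends membranes at caveolae, was the 1 accessory gene called with each of SAHA and VPA, and rose to 22.3 ± 3.51 TPM with SAHA (limma adjusted p = 0.0365) and to 25.6 ± 3.71 with VPA (limma adjusted p = 0.0125), against 13.5 ± 1.82 with DMSO. The SAHA call was lost without any 1 of the SAHA or DMSO libraries (adjusted p up to 0.119, without SAHA replicate 2), without VPA replicate 2 or JQ1 replicate 3, with no filter, in a fit of those groups alone and with the replicate block, 11 of 21 alternatives in all. The VPA call was lost without VPA replicate 1 or DMSO replicate 3 and in a fit of those groups alone (adjusted p up to 0.0589, in that fit).

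Proteins known to reside in caveolae formed a list of 20 genes, of which 14 were tested. With JQ1, 1 was higher and 4 lower (median −0.23), near the 33.9% of all tested genes called in either direction. With VPA 1 was lower and with SAHA limma called 0 (4 at an unadjusted p under 0.05). The water channel gene Aqp1 had 7.87, 7.80 and 5.62 TPM with JQ1 and 11.98, 7.21 and 5.76 with VPA, against 23.70, 19.25 and 20.31 with DMSO (−1.46 and −1.30, limma adjusted p = 0.000485 and 0.00973). The VPA call was lost in a fit of those groups alone (adjusted p = 0.071). With SAHA Aqp1 had 12.30, 10.71 and 11.73 TPM, and the difference of −0.81 from DMSO missed the threshold (limma adjusted p = 0.0691). Src, the kinase known to phosphorylate caveolin-1, fell to 1.81 ± 0.56 TPM in JQ1 cells, against 5.27 ± 0.504 in DMSO cells (limma adjusted p = 0.00188). The growth factor receptor gene Pdgfra and the lipoprotein receptor gene Scarb1 also fell with JQ1 (−1.58 and −0.78, limma adjusted p = 0.00271 and 0.00923), with Pdgfra at 0 in 1 JQ1 library. Pdgfra was low with DMSO too, at 0.94, 3.98 and 2.53 TPM. Its difference ran from −3.67 to −0.54 over the alternatives, with the call held in each. The 1 resident called higher was the kinase gene Fyn, at 32.1 ± 5.23 TPM in JQ1 cells, against 18.5 ± 1.17 in DMSO cells (0.75, limma adjusted p = 0.00928). Cd36 was listed at 0 in all libraries, and the endothelial caveola genes Plvap and Nos3 were at most 0.37 TPM.

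Other ways of ordering or entering the membrane gave mixed counts. Of 13 tested flotillin and raft genes, 5 were higher with SAHA, 3 higher and 1 lower with VPA, and 4 higher and 2 lower with JQ1. Prnp, the raft-bound prion protein gene, had 116.52, 100.97 and 112.34 TPM with JQ1, against 33.41, 36.32 and 37.98 with DMSO (1.59, limma adjusted p = 2.05e-07). With SAHA Prnp rose by 0.42 (limma adjusted p = 0.0218), a call lost under 5 of 21 alternatives. Anxa6, an annexin that binds membranes with calcium, rose to 22.1 ± 4.37 TPM with SAHA and 21.95 ± 2.85 with VPA, against 8.17 ± 0.997 with DMSO (limma adjusted p = 0.00231 and 0.00357). With JQ1 Anxa6 fell to 5.07 ± 0.932 TPM (−0.60, limma adjusted p = 0.0283), a call lost under 6 of 21 alternatives. Flot1, a flotillin gene, rose with SAHA, VPA and JQ1 (0.86, 0.75 and 0.44). Its JQ1 call (limma adjusted p = 0.0322) was lost under 5 of 21 alternatives. The tetraspanin gene Cd81 rose with SAHA, VPA and JQ1 (0.58, 0.55 and 0.81), and S100a10, the annexin A2 partner, with SAHA (0.64). The Flot1 call with VPA was lost without VPA replicate 2 or DMSO replicate 1 and in a fit of those groups alone (adjusted p up to 0.0611, in that fit), and the Cd81 call with VPA in such a fit (0.071). Anxa2 fell by 0.26 with VPA, a call lost under 8 of 21 alternatives, among them without VPA replicate 1 or 3 or any 1 of the DMSO libraries. Stoml1 had 6.09, 6.45 and 5.69 TPM with JQ1, against 0, 1.68 and 0.27 with DMSO. Its difference of 2.23 ran from 0.98 to 3.93 over the alternatives, with the call held in each. Stoml2 fell by 0.76 with JQ1. Of 22 tested clathrin-route genes, 1 was higher with SAHA, 1 higher with VPA, and 4 higher and 2 lower with JQ1, where the sorting nexin gene Snx9 fell to 14.9 ± 2.54 TPM in JQ1 cells, against 47.2 ± 2.27 in DMSO cells (limma adjusted p = 1.79e-06). The phosphatase gene Synj1 rose with JQ1 (1.54) and with VPA (1.01, a call lost under 16 of 21 alternatives, among them without any 1 of the SAHA or VPA libraries, JQ1 replicate 1 or 2, or DMSO replicate 1 or 2), the dynamin gene Dnm1 fell with JQ1 (−1.30), and the adaptor gene Ap2a2 rose with JQ1 (0.79, a call lost without DMSO replicate 3, adjusted p = 0.0505). The Dnm1 difference with JQ1 ran from −1.75 to −0.64 over the alternatives that tested it, with the call held in each. The adaptor gene Dab2 rose with SAHA (0.66), a call lost without SAHA replicate 1 or 3 or DMSO replicate 1 or 2 and in a fit of those groups alone (adjusted p up to 0.0772, without DMSO replicate 2). Of 15 tested transcription regulators linked to caveolin genes or to membrane tension, 4 were higher and 4 lower with JQ1, 1 was higher with VPA and limma called 0 with SAHA (0 at an unadjusted p under 0.05). Klf2 had 151.54, 146.37 and 149.89 TPM with JQ1, against 10.91, 10.60 and 10.04 with DMSO (3.71, limma adjusted p = 3.17e-09). Tead2, a partner of YAP, fell to 6.90 ± 1.23 TPM with JQ1, against 20.9 ± 1.30 in DMSO cells (limma adjusted p = 7.94e-05). Another TEAD gene, Tead1, rose to 25.5 ± 5.16 TPM with JQ1, against 15.5 ± 2.46 with DMSO (0.67, limma adjusted p = 0.0119). The Tead1 call was lost without JQ1 replicate 3 (limma adjusted p = 0.0504). Tead3 (0.68) and Tead4 (−0.69) were not called with JQ1. Klf4 rose (1.77) and Srf fell (−1.12) with JQ1, and Klf2 rose with VPA (0.53), a call lost under 13 of 21 alternatives, among them without any 1 of the VPA, JQ1 or DMSO libraries. These counts stand beside 33.9% of all tested genes called with JQ1, 5.19% with SAHA and 4.27% with VPA, and the comparisons share their DMSO libraries.

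**Figure D4:**
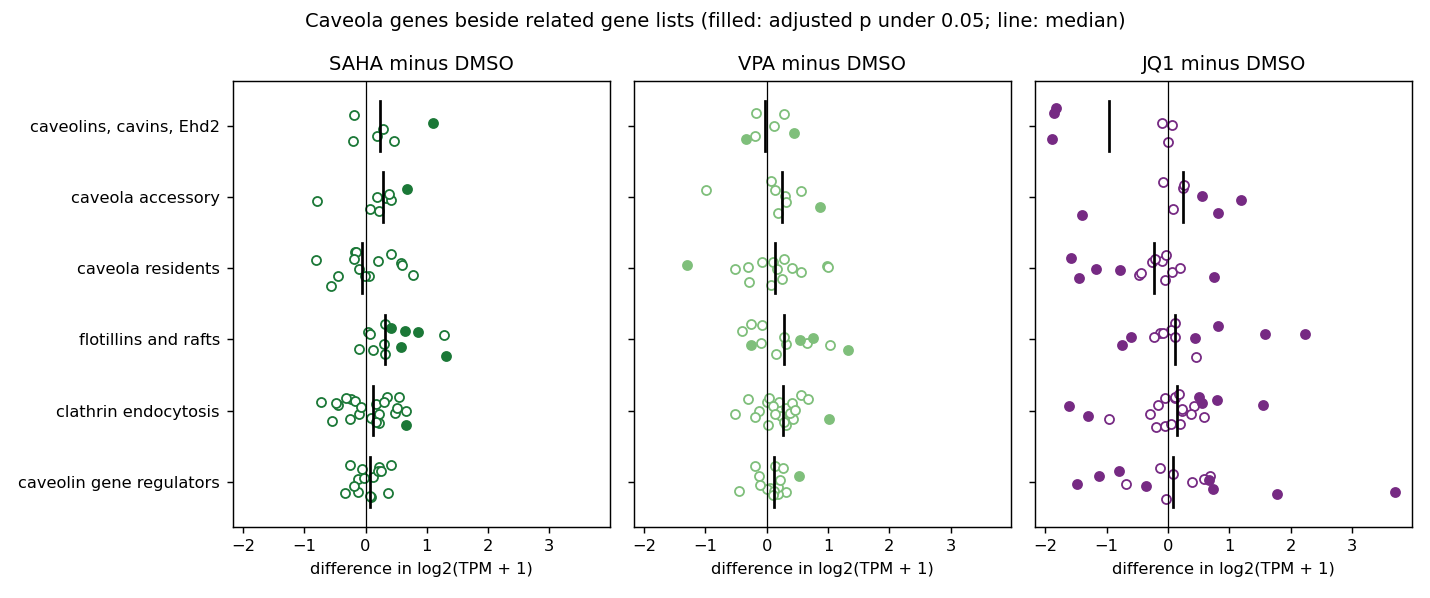
Difference in log2(TPM + 1) from DMSO for each tested gene of the 6 caveola genes and of 5 related lists, by drug; filled points have an adjusted p under 0.05 and the line is the median. With JQ1 the caveolins and Cavin2 form a cluster near −1.9 while the accessory genes have a median of 0.25.

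Cell type markers moved with the groups as well. The summed TPM of the 12 blood endothelial genes was 186.2 to 205.8 with SAHA, 118.8 to 152.4 with VPA and 52.9 to 55.0 with JQ1, against 94.0 to 109.5 with DMSO, with Cdh5 and Vwf at 0 throughout. Nearly all of it was Cd34, at 184.88 to 204.40 TPM with SAHA, 117.76 to 151.44 with VPA and 51.84 to 52.91 with JQ1, against 93.56 to 108.76 with DMSO, while Pecam1 was at most 1.01 TPM, in a JQ1 library. The sum of the 10 pericyte and smooth muscle genes, 4 of which reached 1 TPM, was 42.9 to 50.6 with SAHA, 58.2 to 65.8 with VPA and 29.4 to 33.9 with JQ1, against 68.7 to 81.7 with DMSO, with Rgs5 at 0. The sum of the 8 adipocyte genes was 33.0 to 36.6, 35.6 to 42.8 and 38.2 to 41.7 in the same order of drugs, against 18.7 to 20.3 with DMSO, with Adipoq, Cfd, Cidec and Lep at 0. It was mostly Lpl, at 36.84 to 40.14 TPM with JQ1 against 14.85 to 18.37 with DMSO, while Fabp4 was at 0 in the 3 JQ1 libraries, against 0.64 to 1.52 TPM with DMSO. The fibroblast sum was 1125 to 1267 with SAHA, 1006 to 1072 with VPA and 818.1 to 848.9 with JQ1, against 785.7 to 826.3 with DMSO. None of its 10 genes was at 0 in every library, but Lum was above 0 only in SAHA replicate 3 (0.32 TPM). Thy1 rose to 476.57 to 634.89 TPM with SAHA and 442.35 to 529.81 with VPA, against 147.33 to 161.72 with DMSO. Col1a2 had 415.54 to 434.98 with SAHA and 536.28 to 544.08 with JQ1, against 450.50 to 489.70 with DMSO. Col3a1 fell to 2.95 to 3.99 with JQ1, against 18.90 to 19.35 with DMSO. The lymphatic sum, of which 1 of 6 genes (Pdpn) reached 1 TPM, was 107.0 to 121.7 with SAHA, 105.3 to 107.2 with VPA and 45.8 to 49.1 with JQ1, against 69.1 to 77.6 with DMSO. The epithelial sum, nearly all Krt19 with Epcam at 0, was 21.9 to 26.7 with SAHA, 25.3 to 35.8 with VPA and 30.4 to 40.3 with JQ1, against 11.2 to 12.9 with DMSO. Their part in the levels of Cav1, Cav2 and Cavin2 was not tested.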

How the data were processed

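RNA of ISOS-1 cells was sequenced from transcript 3′ ends (QuantSeq, forward kit), per the labels' protocols. Build mm39 and the tools edgeR, RSEM, STAR and bcl2fastq 2.17 appear in the submitters' processing notes, which give no role for any of them. The deposited values are TPM made by the authors, and the depth behind them is unknown. They were checked against the 3 sheets of drug and DMSO columns, which hold the same values (332154 each), although in the SAHA sheet the identifiers stand 1 line above their values. No column was left out. Replicates were not averaged before testing.

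Genes that reached 1 TPM in 3 or more libraries (12836) entered a limma 3.58.1 fit of log2(TPM + 1) under R 4.3.3, with a mean for each of the 4 groups, 8 residual degrees of freedom and variances moderated with a trend on level (eBayes). Tests were two-sided, and a Benjamini-Hochberg adjusted p under 0.05 over all tested genes counts as called. Fold changes are ratios of mean TPM, while differences on the log2(TPM + 1) scale understate changes of low genes. Of the tested genes, 1842 took their symbol from GENCODE M21. The fit was tested on simulated data. Genes other than members were named by a rule: up to 4 called genes per list and drug with the largest change, and the 3 nearest profiles of each member called against DMSO, of which 1 for Cav1 is not reported here. Fyn, Tead1, Tead3, Tead4, Cav3, Cd36, Plvap, Nos3, Cdh5 and the other genes given as absent or as markers fall outside this rule. So do the JQ1 values of Flot1 and Anxa6 and the SAHA value of Prnp. All were singled out with their values in view. The members and lists were chosen with earlier results of these data known.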

Additional observations from a re-analysis of the deposited data

How the results depend on the processing

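The falls of Cav1, Cav2 and Cavin2 with JQ1, the rise of Cavin2 with SAHA, and the 4 members called between SAHA and JQ1 and between VPA and JQ1 kept their direction and call under all 21 alternatives, with pseudocounts of 0.1 and 5 TPM, no filter, a filter at 5 TPM, 2 rescalings, removal of mitochondrial genes and Rn18s, fits of 2 groups, the block and each library left out. Members called came to 2 with a pseudocount of 5 TPM between SAHA and DMSO and between SAHA and VPA. Between VPA and DMSO they came to 1 with a pseudocount of 0.1 TPM, no filter, median-of-ratios scaling, quantile normalization or the replicate block, and to 0 in a fit of the 2 groups alone. Between SAHA and VPA they came to 0 in such a fit. Fits of 2 groups, which hold fewer samples, called 369 genes for SAHA against DMSO, 243 for VPA against DMSO and 19 for SAHA against VPA. Median-of-ratios scaling called 94 for SAHA against VPA. The cause of these changes in count was not tested.

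Leaving out 1 library at a time gave 1 to 2 called members and 365 to 637 called genes for SAHA against DMSO, 0 to 2 and 294 to 508 for VPA against DMSO, 3 and 3656 to 4362 for JQ1 against DMSO, 0 to 2 and 15 to 61 for SAHA against VPA, 4 and 3667 to 4227 for SAHA against JQ1, and 4 and 3670 to 4269 for VPA against JQ1. Leaving out any library of the groups compared lowered the count of genes by over 1.5 times for SAHA against DMSO, VPA against DMSO and SAHA against VPA. The lowest for SAHA against VPA was without SAHA replicate 3. Uncalled log2 differences crossed 0: Cavin3 −0.40 to 0.091 for SAHA against DMSO, Cav2 −0.35 to 0.013 for VPA against DMSO, Cavin3 −0.056 to 0.028 and Ehd2 −0.21 to 0.071 for JQ1 against DMSO, Ehd2 −0.086 to 0.048 for SAHA against VPA, and Cavin3 −0.40 to 0.099 for SAHA against JQ1. So did ratios to Cav1: Cavin2 −0.045 to 0.028 for SAHA against VPA and −0.14 to 0.065 for JQ1 against DMSO, and Cav2 −0.16 to 0.18 for VPA against DMSO, −0.12 to 0.25 for VPA against JQ1 and −0.24 to 0.13 for JQ1 against DMSO.

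Under median-of-ratios scaling and quantile normalization, Cavin3 came to 0.11 and 0.13 for JQ1 against DMSO (0.054 without mitochondrial genes and Rn18s) and to −0.054 and −0.061 for VPA against JQ1, and Ehd2 to 0.043 and 0.075 for SAHA against VPA. The ratio of Cav2 to Cav1 changed sign with a pseudocount of 0.1 TPM, to −0.0021 for VPA against DMSO and 0.063 for SAHA against JQ1, and with 5 TPM, to 0.33 for JQ1 against DMSO and −0.29 for VPA against JQ1. That of Cavin2 to Cav1 came to 0.029 for JQ1 against DMSO with 0.1 TPM, and for SAHA against VPA to 0.043 with 5 TPM and 0.00054 with median-of-ratios scaling. The cause of these reversals was not tested.

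Replicate numbers are shared between groups but did not pair the libraries: the 18 correlations of same-numbered deviations ran from −0.0449 to 0.0789, and 5 of 12 libraries correlated best with their own number. With the replicate block, 24 genes and 0 members were called for SAHA against VPA, and 1 member for VPA against DMSO. TPM without counts leaves counting error unknown, which matters most for the low Cav2 and Ehd2.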
